A study of Mus musculus with 12 samples.

Results

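The immunity-related GTPases (IRGs) are a family of interferon-inducible proteins, and 7 of their genes were taken by symbol from the gene count matrix: Irgm1, Irgm2, Igtp, Iigp1, Tgtp1, Tgtp2 and Ifi47. They are 7 of 20778 genes in the matrix, and all 7 were among the 12122 genes that passed the filter on low counts, with 293 to 16621 counts per library. RNA was sequenced from CD8 T cells that had been bead-purified from spleens of C57BL/6 mice and kept in culture for 6 hours. The 4 groups of 3 libraries were cells left untreated (Naïve), cells given an antibody to the T cell receptor component CD3 (αCD3, 1 µg/ml), cells given interferon gamma (IFNγ, 70 ng/ml) and cells given bacterial lipopolysaccharide (LPS, 1 µg/ml). All groups share the strain, the spleen source and the culture, and the mice were 6 weeks old by the labels, although an older age is stated in the methods of the study. The unit of the αCD3 and LPS doses is uncertain, since the sample descriptions contradict each other on it. No label says whether the 3 libraries of a group came from separate mice, so p-values measure the spread between these libraries, which may be technical.

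IRG proteins act on the membranes around pathogens that live inside cells. The GMS proteins (Irgm1, Irgm2 and Igtp, the last also known as Irgm3) are regulators that sit on the membranes of the cell itself and hold the other IRG proteins inactive there. The GKS proteins (Iigp1, also known as Irga6; Tgtp1 and Tgtp2, together Irgb6; and Ifi47, also known as Irgd) are effectors that load onto the membrane of the pathogen vacuole and help to break it. Their transcription is known to be switched on by IFNγ through GAS elements and by interferon regulatory factors, which bind ISRE elements.

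Total counts ranged from 10.2 M to 27.6 M per library. Levels are given in CPM, that is counts scaled by library size after TMM normalisation, per library or as mean ± SD over the 3 libraries of a group. The bead-purified cells held Cd8a in every library (187.5 to 503.5 CPM), but B cell transcripts were abundant as well. The summed level of 10 B cell markers was above that of 9 CD8 T cell markers in 10 of 12 libraries (1835 to 3396 CPM against 1245 to 2378 CPM), and 14 myeloid markers summed to 734.9 to 2327 CPM. The IRG levels below are thus those of a mixture, in which fewer cells of a type and less RNA per cell cannot be told apart.

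The 300 bases around the RefSeq start of each gene (250 before, 50 after) were read from the promoter table of build GRCm38.p6, which had an entry for all members but Iigp1. They were searched on both strands for the GAS letters TTCNNNGAA, which read the same on either strand, and for the ISRE core GAAANNGAAA. The stretches of 5 members are shown because they hold these motifs, 4 of them in the same order and spacing. Each is 60 bases long, 5′ to 3′ on the strand of the gene, with motif matches in capitals. Irgm2 lies on the plus strand (chr11:58214882-58214941), Igtp on the plus strand (chr11:58199491-58199550), Tgtp1 on the minus strand (chr11:48992295-48992354), Tgtp2 on the minus strand (chr11:49064254-49064313) and Irgm1 on the minus strand (chr11:48871416-48871475).
Irgm2: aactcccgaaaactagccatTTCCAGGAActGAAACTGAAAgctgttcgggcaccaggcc
Igtp: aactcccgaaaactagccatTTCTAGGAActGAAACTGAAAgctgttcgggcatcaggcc
Tgtp1: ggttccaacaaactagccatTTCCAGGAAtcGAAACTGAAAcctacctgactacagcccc
Tgtp2: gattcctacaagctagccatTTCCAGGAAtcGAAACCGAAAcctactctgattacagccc
Irgm1: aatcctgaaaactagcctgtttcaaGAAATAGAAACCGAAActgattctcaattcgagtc

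In Irgm2, Igtp, Tgtp1 and Tgtp2 the GAS match began 11 bases before the ISRE match, at 75, 45, 88 and 81 bases before the RefSeq start. The GENCODE M21 models of Irgm2, Tgtp1 and Irgm1 start outside these windows (at 58199618, 48994172 and 48871683). Distances given here thus hold for the RefSeq start only. Of all 32851 windows in the table, 8.3% held a GAS match, 3.44% an ISRE match and 0.454% both. The arrangement with 11 bases between the first letters was present in 7 windows (0.0213%), which were those of the 4 members, of the related gene Gm12185, and of Usp17lc and Usp17ld. It was noticed in these 4 genes first, and they are related by descent. Compared base by base without gaps, the stretches of Igtp and Irgm2 are 96.7% identical, those of Tgtp1 and Tgtp2 76.7%. After the ISRE the letters of Tgtp1 and Tgtp2 run out of step, which lowers their value, so these values do not rank the pairs. The Irgm1 window held a pair of overlapping ISRE matches, at 30 and 24 bases before the start, and no GAS match; the 9 letters found 11 bases before its last ISRE (TTCAAGAAA) are 1 letter off the GAS pattern. The Ifi47 window held neither. A match is a run of letters and not a measured binding site, and no match says only that these letters are absent from this window.

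**Figure D1:**
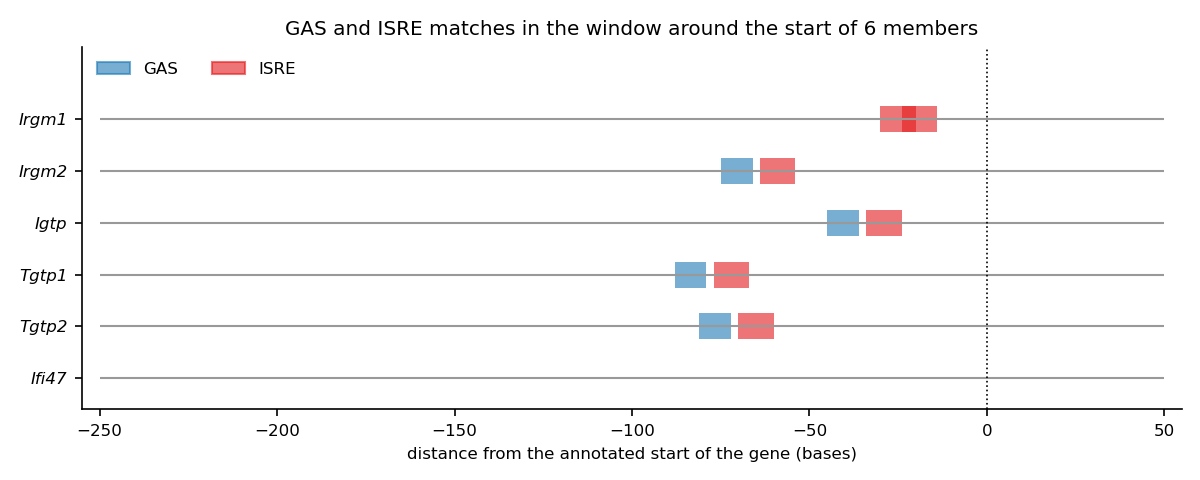
Positions of GAS (blue) and ISRE (red) matches in the window from 250 bases before to 50 bases after the RefSeq start of 6 members, with distance from the start in bases on the x axis. The 2 kinds of match stand side by side in Irgm2, Igtp, Tgtp1 and Tgtp2, Irgm1 has 2 overlapping ISRE matches and Ifi47 has none.

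To ask how each stimulus changed the family, each member was compared between groups with the edgeR quasi-likelihood test, fitted across all 12122 genes and all 12 libraries, and a gene is referred to as called at a Benjamini-Hochberg adjusted p under 0.05. All 7 members were called for a difference among the 4 groups, as were 59.9% of tested genes. After IFNγ all 7 rose over Naïve, whereas 8.17% of tested genes were called higher and 4.27% lower. All comparisons with Naïve share the same 3 Naïve libraries. The members' log2 fold changes ranged from 2.46 to 4.78 with a median of 2.70, against a median of -0.02 over all tested genes. Every IFNγ library was above every Naïve library for all 7, as it was for 16.1% of tested genes. The summed myeloid markers stood at 1347 to 2327 CPM in IFNγ and 801.8 to 1421 CPM in Naïve, but of 13 tested only Mpeg1 (394.2 to 969.2 CPM) and Cybb (179.8 to 468.7 CPM) were called higher. The other tested myeloid markers were not called and went both ways. Csf1r, a growth factor receptor of macrophages, was at 108.8 CPM in Naïve and 57.5 CPM in IFNγ (adjusted p = 0.156). Fcgr1 was at 7.96 CPM in Naïve and 26.0 CPM in IFNγ (adjusted p = 0.158). The B cell sum was 2782 to 2890 CPM in IFNγ against 3117 to 3396 CPM in Naïve. Natural killer markers summed to 109.6 to 233.5 CPM in IFNγ and 97.05 to 115.7 CPM in Naïve. Of 6 tested only Eomes, which CD8 T cells also express, was called higher (1.96-fold, adjusted p = 0.0233). The part of these markers in the result was not tested.

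Among the regulators, Irgm1, which directs the others and is linked to autophagy, was at 114.6, 158.6 and 170.4 CPM in the Naïve libraries, 231.1, 664.6 and 513.7 CPM in αCD3, 1234, 1267 and 1279 CPM in IFNγ, and 468.1, 1135 and 1054 CPM in LPS. The IFNγ libraries were thus close together and above all others, whereas the αCD3 and LPS libraries spread widely, with replicate 1 lowest in both. The rise from Naïve to IFNγ was 8.52-fold (log2 fold change 3.09, SE 0.41, adjusted p = 0.0012). Igtp held 118.6, 189.4 and 197.7 CPM in Naïve, 191, 444.6 and 373.4 CPM in αCD3, 1044, 1173 and 1171 CPM in IFNγ, and 404.4, 933.8 and 918.3 CPM in LPS. Its order was the same, and only αCD3 replicate 1 fell within the Naïve range. Igtp rose 6.70-fold after IFNγ (log2 fold change 2.75, SE 0.38, adjusted p = 0.00145). Irgm2, the remaining regulator, was at 37.56, 53.37 and 63.02 CPM in Naïve, 56.14, 129 and 96.18 CPM in αCD3, 263.7, 312.5 and 279.1 CPM in IFNγ, and 95.94, 190.6 and 191.1 CPM in LPS. Here too the IFNγ libraries were above all others and αCD3 replicate 1 lay within the Naïve range. Irgm2 rose 5.56-fold after IFNγ (log2 fold change 2.48, SE 0.34, adjusted p = 0.00145).

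Among the effectors, Iigp1 had the largest fold changes, from 14.28, 27.82 and 33.51 CPM in Naïve to 33.09, 140 and 85.63 CPM in αCD3, 548.7, 808 and 710.7 CPM in IFNγ, and 144, 439.8 and 398.4 CPM in LPS. The IFNγ and LPS libraries were all above the Naïve and αCD3 libraries, and αCD3 replicate 1 lay within the Naïve range. Iigp1 rose 27.45-fold after IFNγ (log2 fold change 4.78, SE 0.61, adjusted p = 0.00103) and was number 24 of 12122 genes by the size of that rise. Ifi47 was at 198.4, 268.6 and 287.7 CPM in Naïve, 344.2, 808 and 699 CPM in αCD3, 1216, 1469 and 1458 CPM in IFNγ, and 617.2, 1209 and 1128 CPM in LPS. The groups of Ifi47 did not overlap except αCD3 and LPS. Its rise after IFNγ was the smallest of the 7 as fitted, at 5.49-fold (log2 fold change 2.46, SE 0.33, adjusted p = 0.0013), but differed from the rises of Irgm2, Igtp, Tgtp1 and Tgtp2 by less than its SE.

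Tgtp1 and Tgtp2 are near-identical neighbours that encode the effector Irgb6. Tgtp1 was counted at 131.8, 184.6 and 228.7 CPM in Naïve, 166.2, 375.5 and 296.3 CPM in αCD3, 1147, 1219 and 1181 CPM in IFNγ, and 402.3, 792.3 and 747.5 CPM in LPS. Tgtp2 was counted at 19.15, 25.63 and 26.19 CPM in Naïve, 32.46, 64.48 and 58.11 CPM in αCD3, 145, 145.4 and 143 CPM in IFNγ, and 62.02, 96.68 and 100.2 CPM in LPS. Both had all IFNγ libraries above all others, and for both replicate 1 was the lowest of αCD3 and of LPS. After IFNγ they rose 6.51-fold (Tgtp1; log2 fold change 2.70, SE 0.34, adjusted p = 0.000961) and 6.12-fold (Tgtp2; log2 fold change 2.61, SE 0.26, adjusted p = 0.000322). Of the 31-base words in their GENCODE M21 transcripts, 15.6% (Tgtp1) and 9.46% (Tgtp2) occur in no other gene, and 83.2% and 89.2% occur in the other of the pair, so the division of reads between them is uncertain. Their summed level does not rest on that division and was 205.3 ± 52.1 CPM in Naïve, 331 ± 122 CPM in αCD3, 1327 ± 36.4 CPM in IFNγ and 733.7 ± 234 CPM in LPS (n = 3 each), a 6.46-fold rise after IFNγ (adjusted p = 0.00082 in a fit of the sum).

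**Figure D2:**
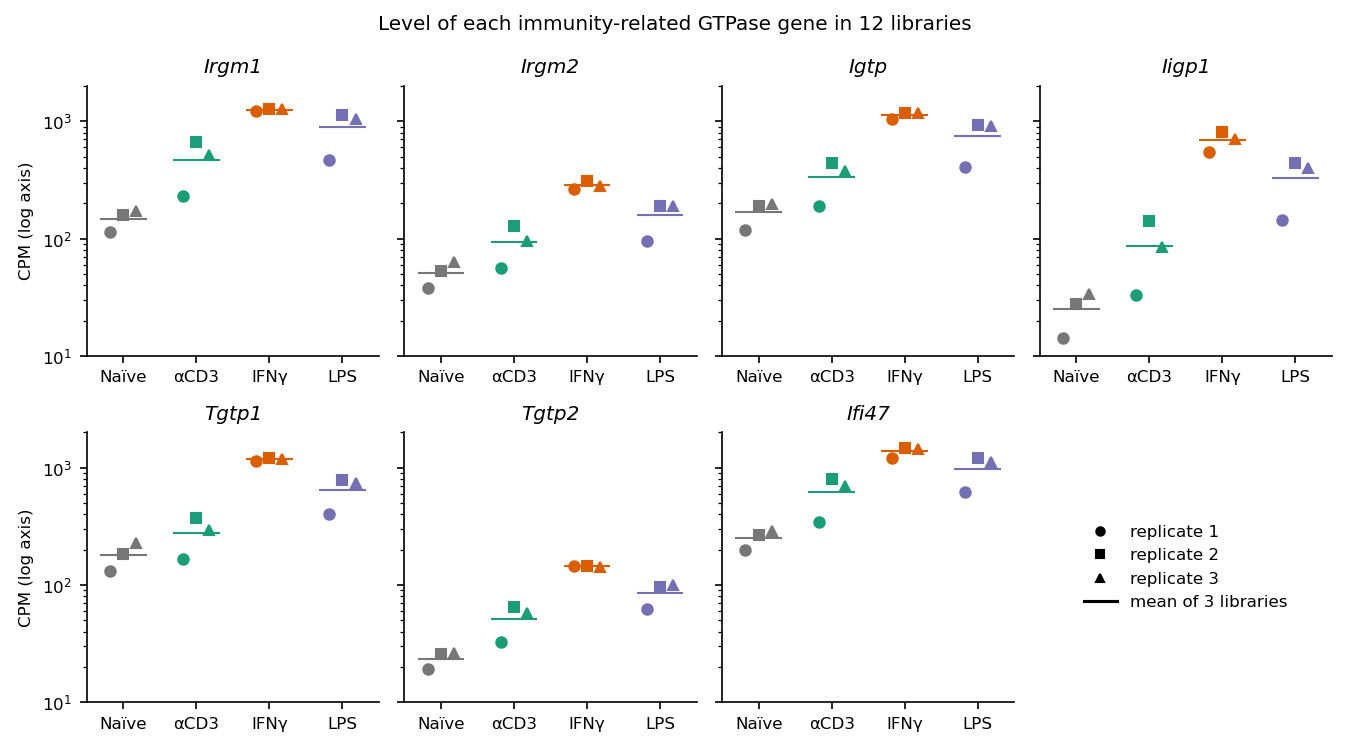
CPM on a log axis for each of the 7 members in the 12 libraries, with point shape for the replicate number and a line for the mean of each group. The IFNγ libraries stand highest for all 7 members, and replicate 1 is the lowest library of Naïve, αCD3 and LPS throughout.

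Altogether the 7 members took 0.0689 to 0.109% of all counts in Naïve libraries, 0.108 to 0.258% in αCD3, 0.567 to 0.618% in IFNγ and 0.211 to 0.442% in LPS.

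LPS also raised the whole family. All 7 members were called higher than Naïve and none lower, against 26.9% and 22.3% of tested genes, and all 7 had every LPS library above every Naïve library, against 30.6%. Their median log2 fold change was 1.97. Iigp1 again rose furthest, 13.05-fold (log2 fold change 3.71, SE 0.59, adjusted p = 0.000528), followed by Irgm1 at 5.99-fold (2.58, SE 0.40, adjusted p = 0.00048) and Igtp at 4.47-fold (2.16, SE 0.37, adjusted p = 0.000886). The smallest rise was that of Irgm2, at 3.11-fold (log2 fold change 1.64, SE 0.33, adjusted p = 0.00243). The summed myeloid markers were at 960.6 to 1555 CPM in LPS and 801.8 to 1421 CPM in Naïve, yet 6 of 13 tested were called lower, among them Csf1r (0.243-fold) and C1qa (0.256-fold), and 1, Cd14, higher. B cell markers summed to 1835 to 2414 CPM against 3117 to 3396 CPM in Naïve, and CD8 T cell markers to 1245 to 1428 CPM against 1550 to 1742 CPM, both outside the Naïve range, as was the CD4 T cell sum (66.8 to 80.7 against 103.4 to 121.7 CPM). The part of these markers in the result was not tested.

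After αCD3 the rise was smaller. In this comparison 5 of the 7 members were called higher and none lower, against 22.9% and 15.7% of tested genes, and 3 (Irgm1, Tgtp2 and Ifi47) had every αCD3 library above every Naïve library, against 28.6%. Irgm1 rose 3.18-fold (log2 fold change 1.67, SE 0.39, adjusted p = 0.0073), Iigp1 3.42-fold (1.77, SE 0.55, adjusted p = 0.02715), Ifi47 2.45-fold (1.29, SE 0.32, adjusted p = 0.00958), Tgtp2 2.18-fold (1.12, SE 0.26, adjusted p = 0.00639) and Igtp 1.99-fold (1.00, SE 0.36, adjusted p = 0.04945). Irgm2 did not pass the test (log2 fold change 0.87, 95% interval 0.14 to 1.60, adjusted p = 0.0595), nor did Tgtp1 (0.62, -0.09 to 1.33, adjusted p = 0.15). The call of Tgtp2 rests on the uncertain division of reads, and the sum of Tgtp1 and Tgtp2 was not called (1.61-fold, adjusted p = 0.103). With the replicate number as a block, which the check of pairing called for, 6 were called higher, against 28.1% of tested genes higher and 24.2% lower under the block. Irgm2 was then at adjusted p = 0.011 and Tgtp1 at 0.0539. Leaving out αCD3 replicate 1 brought all 7 past the threshold, with 4946 genes called in either direction against 4681 with all libraries. The call of Igtp was lost in 10 of 12 fits that left out 1 library (adjusted p = 0.0552 to 0.183; all but αCD3 replicate 1 and LPS replicate 1), and that of Iigp1 in 4 (adjusted p = 0.06045 to 0.124; Naïve replicates 1 and 2, αCD3 replicates 2 and 3). B cell markers summed to 2247 to 2543 CPM in αCD3 against 3117 to 3396 CPM in Naïve, and CD8 T cell markers to 2189 to 2378 CPM against 1550 to 1742 CPM, both outside the Naïve range. The sums of natural killer markers (150.6 to 212.1 CPM, mostly Eomes, which CD8 T cells also express), CD4 T cell markers (79.1 to 94.7 CPM) and neutrophil markers (85.9 to 127.8 CPM) lay outside the Naïve ranges as well (97.05 to 115.7, 103.4 to 121.7 and 131.6 to 181.9 CPM). Of the myeloid markers, 4 of 13 tested were called lower and 1, Cybb, higher, and the part of these markers in the result was not tested.

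**Figure D3:**
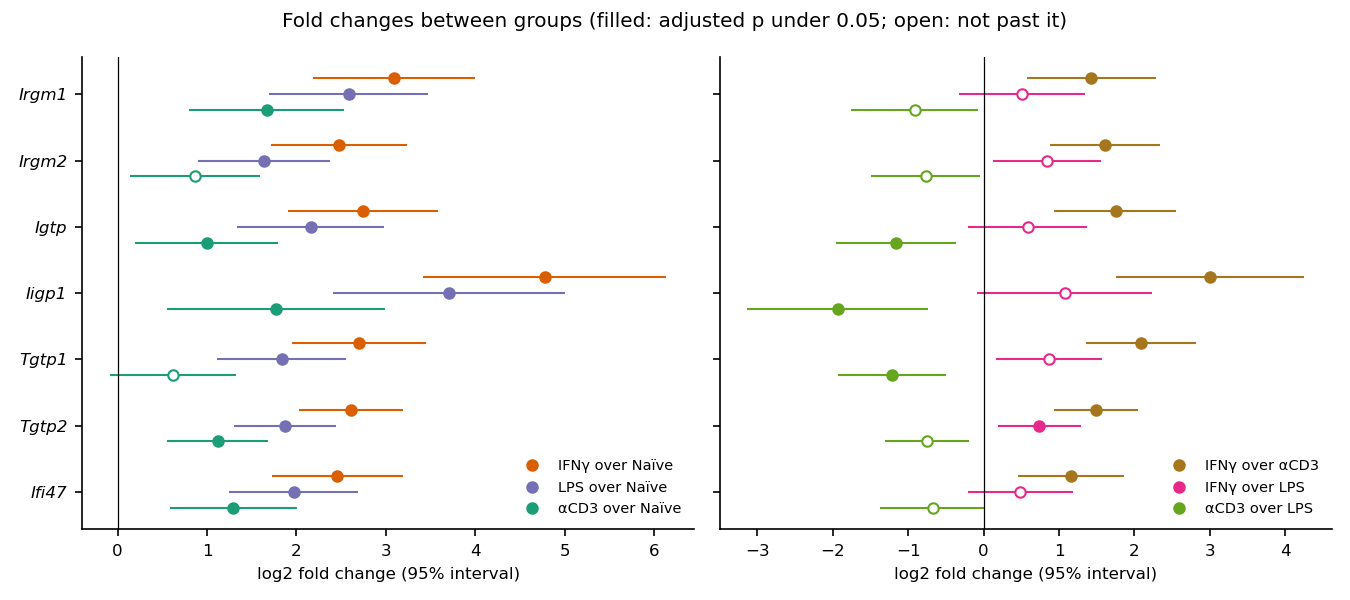
Log2 fold changes of the 7 members with 95% intervals, against Naïve on the left and between the 3 stimuli on the right. Filled points passed an adjusted p of 0.05 and open points did not; for every member the estimate was highest with IFNγ, then LPS, then αCD3.

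Between the stimuli, IFNγ gave higher levels than αCD3 for all 7 members, all of them called higher and none lower, against 15.8% and 21.4% of tested genes. All 7 had every IFNγ library above every αCD3 library, as did 21.7% of tested genes. The difference was 8.04-fold for Iigp1 (log2 fold change 3.01, SE 0.56, adjusted p = 0.00189), 4.24-fold for Tgtp1 and 2.24-fold for Ifi47, with a median log2 fold change of 1.61. In the same comparison 6 of 9 CD8 T cell markers were called lower in IFNγ, 4 of 10 B cell markers higher and 3 of 13 myeloid markers higher, and their part in the result was not tested.

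IFNγ against LPS was less clear-cut. Every IFNγ library was above every LPS library for all 7 members, against 23.5% of tested genes, but the test called only Tgtp2 higher (1.67-fold, log2 fold change 0.74, SE 0.25, adjusted p = 0.0339) and none lower, against 18% and 22.4% of tested genes. The sum of Tgtp1 and Tgtp2 was called too (1.81-fold, adjusted p = 0.048). The Tgtp2 call was lost without any 1 IFNγ library or without LPS replicate 1 or 2 (adjusted p = 0.0541 to 0.0988). With the replicate block 6 of 7 were called higher, all but Irgm1 (log2 fold change 0.64, adjusted p = 0.0981), against 25.8% of tested genes higher under the block. Within each replicate number all 7 members were above 1 in the ratio of IFNγ to LPS, from 1.97-fold to 3.81-fold for number 1, 1.12-fold to 1.84-fold for number 2 and 1.21-fold to 1.78-fold for number 3. Iigp1 differed 3.81-fold in number 1 and 1.84-fold and 1.78-fold in numbers 2 and 3; Irgm1 differed 2.64-fold, 1.12-fold and 1.21-fold. Leaving out replicate 1 of every group, an alternative chosen after its low values were seen, also called all but Irgm1 (log2 fold change 0.20, SE 0.11, adjusted p = 0.177), with 5831 genes called in either direction against 4892. In IFNγ against LPS 6 of 9 CD8 T cell markers were called higher, and B cell markers 4 higher and 3 lower of 10. Myeloid markers were 5 higher and 1 lower of 13, with C1qa higher (14.5 and 3.32 CPM) and Cd14 lower (16.4 and 87.5 CPM). The part of these markers in the result was not tested.

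αCD3 against LPS went the other way. Here 3 members were called lower in αCD3, namely Iigp1 (log2 fold change -1.93, SE 0.54, adjusted p = 0.0307), Tgtp1 (-1.21, SE 0.32, adjusted p = 0.0246) and Igtp (-1.16, SE 0.36, adjusted p = 0.0457), against 9.76% of tested genes, and none higher, against 9.63%. Iigp1 and Tgtp1 had every αCD3 library below every LPS library, as did 18.2% of tested genes; no member had every αCD3 library above, as did 16.6%. With the replicate block all 7 were called lower, against 18.2% of tested genes under the block. The calls of Iigp1 and Tgtp1 were lost without αCD3 replicate 1 or 3 or LPS replicate 2 or 3 (adjusted p = 0.0608 to 0.103), and that of Igtp in 9 of 12 fits (adjusted p = 0.0603 to 0.153; all but Naïve replicate 1, αCD3 replicate 2 and LPS replicate 1). Leaving out LPS replicate 1 called 6 members and 2590 genes in all, against 2350 with all libraries. In αCD3 against LPS 8 of 9 CD8 T cell markers tested were called higher, B cell markers 3 higher and 3 lower, and myeloid markers 3 higher and 1 lower of 13, and their part in the result was not tested.

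The spread inside the groups had a shape of its own. Replicate 1 was the lowest library for all 7 members in Naïve, αCD3 and LPS, and for 6 of 7 in IFNγ. Averaged over the members, its deviation from the group mean was -0.43 on the log2 scale in Naïve, -0.78 in αCD3, -0.11 in IFNγ and -0.71 in LPS. Ifng, which encodes IFNγ itself, was also lowest in replicate 1 of every group, at 1.80, 2.34 and 3.69 CPM in Naïve, 4.33, 40.6 and 31.2 CPM in αCD3, 1.94, 3.98 and 5.06 CPM in IFNγ, and 8.685, 300.0 and 260.3 CPM in LPS. LPS replicate 1 thus held 85 Ifng counts beside 3572 and 3238 in the other LPS libraries. Ifng was called higher in LPS than in Naïve (73.1-fold, log2 fold change 6.19, SE 1.25, adjusted p = 0.00234) and was not called in αCD3 (9.48-fold, log2 fold change 3.25, SE 1.21, adjusted p = 0.055) or IFNγ (1.39-fold, adjusted p = 0.879). With the replicate block the αCD3 rise of Ifng was called too. Summed myeloid markers were also lowest in replicate 1 of every group, at 801.8, 734.9, 1347 and 960.6 CPM in Naïve, αCD3, IFNγ and LPS. So were the summed CD4 T cell markers, at 103.4, 79.1, 91.3 and 66.8 CPM. The 6 summed markers of natural killer cells were lowest in replicate 1 of every group too (97.05, 150.6, 109.6 and 100.5 CPM), and most of that sum is Gzma and Eomes, which CD8 T cells also express. In LPS 5 of the 6 were lowest in replicate 1, among them Gzma (31.8, 175.8 and 143.2 CPM) and the receptor gene Ncr1 (1.23, 6.38 and 4.18 CPM). The exception was Klrb1c (1.33, 1.26 and 2.33 CPM), which was called lower in LPS than in Naïve (0.316-fold, adjusted p = 0.0157). The part of Ifng and of these markers in the members' values was not tested.

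**Figure D4:**
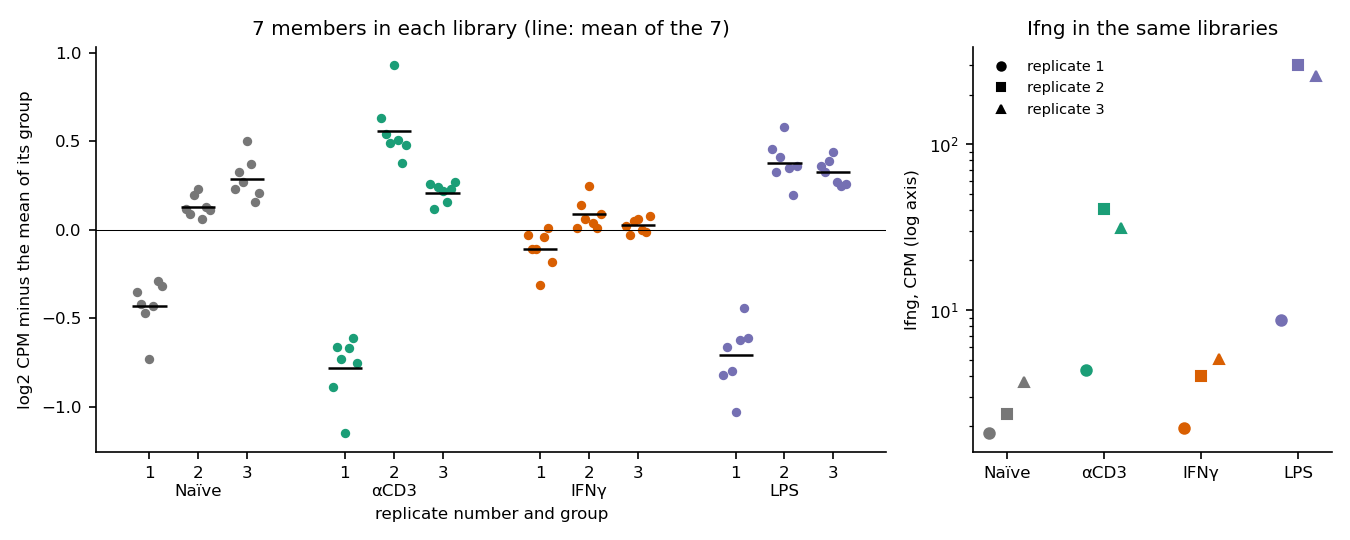
Left, log2 CPM of the 7 members in each library minus the mean of its group, with a line for the mean of the 7; right, CPM of Ifng on a log axis in the same libraries. Replicate 1 lies lowest in every group, with a mean deviation between -0.11 (IFNγ) and -0.78 (αCD3), and it also has the lowest Ifng of each group.

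To ask whether the members keep their proportions, the ratio of each of the 21 pairs was compared over the 4 groups with an exact permutation test over all ways to split 12 libraries into 4 groups of 3 (smallest p possible 6.49e-05), adjusted over the 21 pairs. The ratio within a library does not depend on how libraries are scaled, but it is not corrected for transcript length, so only its change between groups is described. It differed between groups for 18 of 21 pairs, and for 20 when the permutations kept each replicate number once in every group, a test added after the data were seen. All 6 pairs with Iigp1 passed, with group means that spanned 1.73 to 2.37 on the log2 scale. The CPM ratio of Iigp1 to Ifi47 was 0.0955 in Naïve, 0.127 in αCD3, 0.495 in IFNγ and 0.311 in LPS (adjusted exact permutation p = 0.00109), and that of Iigp1 to Tgtp1 was 0.134, 0.278, 0.576 and 0.473 (adjusted exact permutation p = 0.00182). The ratio of Iigp1 to Tgtp2 was 1.01, 1.48, 4.71 and 3.47 (adjusted exact permutation p = 0.0033). All 3 ratios had their highest mean in IFNγ, but the test covers the 4 groups together and no single stimulus. The αCD3 libraries overlapped the Naïve libraries against Ifi47 and Tgtp2, and the IFNγ libraries overlapped the LPS libraries against Tgtp1 and Tgtp2.

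Among the other members shifts were smaller. The ratio of Tgtp1 to Ifi47, both effectors, was 0.713 in Naïve, 0.457 in αCD3, 0.859 in IFNγ and 0.656 in LPS (adjusted exact permutation p = 0.000682), with the αCD3 libraries below all others. The ratio of Irgm1 to Tgtp1 was 0.823 in Naïve, 1.62 in αCD3, 1.07 in IFNγ and 1.33 in LPS (adjusted exact permutation p = 0.00102), highest in αCD3 and lowest in Naïve. Pairs that did not pass were Irgm2 and Tgtp2, Igtp and Tgtp2, and Tgtp2 and Ifi47 (adjusted exact permutation p = 0.204, 0.159 and 0.106), whose group means spanned 0.26, 0.38 and 0.30 on the log2 scale. With permutations that kept replicate numbers, Igtp and Tgtp2 passed (adjusted exact permutation p = 0.0236), as did Tgtp2 and Ifi47 (adjusted exact permutation p = 0.0205). The ratio of Tgtp1 to Tgtp2 also passed (7.56, 5.34, 8.18 and 7.34, adjusted exact permutation p = 0.0108), but it rests on the uncertain division of their shared reads. Every other ratio that holds Tgtp1 or Tgtp2, passed or not, depends on that division as well.

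**Figure D5:**
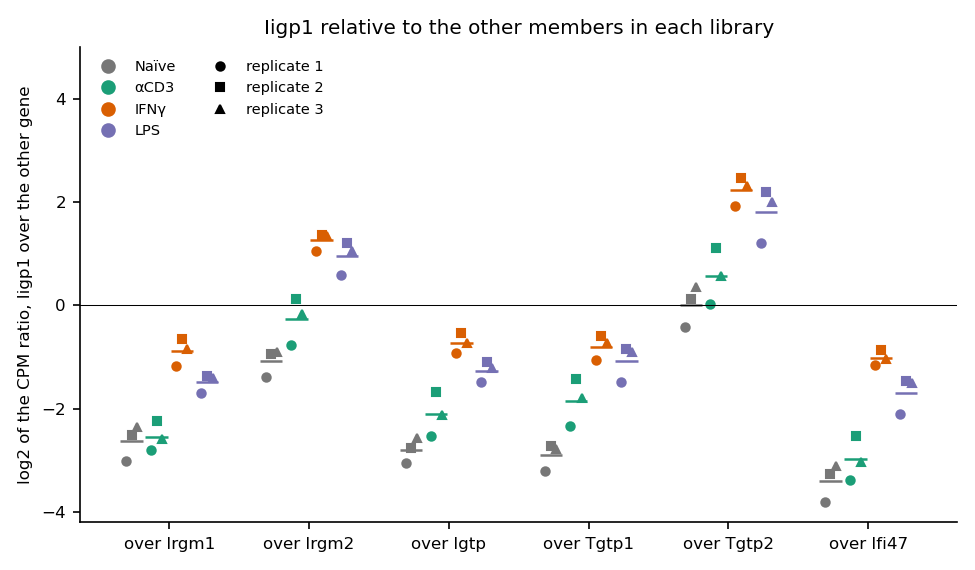
Log2 of the CPM ratio of Iigp1 to each of the other 6 members in every library, coloured by group with a line for the group mean. Against each partner the group mean is highest in IFNγ, then LPS, then αCD3, and lowest in Naïve, with the means of Naïve and αCD3 close together against Irgm1.

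Per kilobase of exons (union of the annotated exons), Ifi47 and Igtp were the most abundant members, at 101.7 ± 19 and 83.4 ± 21.5 CPM per kb in Naïve, followed by Tgtp1 at 56.7 ± 15.1, Irgm1 at 25.45 ± 5.06, Irgm2 at 13.9 ± 3.48, Tgtp2 at 8.05 ± 1.33 and Iigp1 at 4.33 ± 1.70 (SD, n = 3). Their SDs hold the spread between libraries that all members share, and within each Naïve library the order was the same. In IFNγ the order began with Igtp and Ifi47, both at 558.4 CPM per kb (SD 36.7 and 57.9), then Tgtp1 at 368.9 ± 11.3, Irgm1 at 216.9 ± 4.04 and Iigp1 at 118.3 ± 22.5, which was now above Irgm2 at 77.3 ± 6.75 and Tgtp2 at 49.2 ± 0.441. In LPS the order was Ifi47 (398.3 ± 129.8), Igtp (372.0 ± 149.0), Tgtp1 (202.0 ± 66.6), Irgm1 (152.5 ± 62.7), Iigp1 (56.2 ± 27.5), Irgm2 (43.1 ± 14.8) and Tgtp2 (29.4 ± 7.19), and in αCD3 it was that of Naïve, from 249.5 ± 98.1 for Ifi47 to 14.8 ± 9.18 for Iigp1, except that Iigp1 was above Tgtp2 in αCD3 replicate 2 (24.04 and 21.95 CPM per kb). Within every LPS library Ifi47, Igtp, Tgtp1 and Irgm1 kept that order, and Iigp1 was above Irgm2 in replicates 2 and 3 and below it in replicate 1. In IFNγ Igtp was above Ifi47 in replicate 1 and below it in the others. On this scale Iigp1 made up 1.43% of the family's summed level in Naïve, 2.15% in αCD3, 6.04% in IFNγ and 4.29% in LPS. Ifi47 went from 34.9% in Naïve to 28.6% in IFNγ and was highest in αCD3, at 39.0%. With the longest transcript as the length, Ifi47 stood alone at the top in IFNγ, at 778.9 ± 80.7 against 558.4 ± 36.7 CPM per kb for Igtp, and Iigp1 made up 2.18% in Naïve and 9.01% in IFNγ. By that length the αCD3 order changed too, with Irgm1 (122.6) above Tgtp1 (98.95) and Iigp1 (27.6) above Irgm2 (26.6) and Tgtp2 (18.4), and in LPS Irgm1 (231.2) stood beside Tgtp1 (229.3 CPM per kb).

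By GENCODE M21, Irgm1, Tgtp1, Tgtp2 and Ifi47 lie within one stretch of chromosome 11 (Irgm1 from 48861968 to 48871683, Ifi47 to 49096974), Igtp and Irgm2 in another (58199556 to 58222782), and Iigp1 on chromosome 18 (60376027 to 60392634). The gene models of Igtp and Irgm2 overlap on the same strand, and 84.1% and 89.3% of their 31-base words are unique. The model of Olfr56 overlaps Ifi47 on its strand and Tgtp1 and Tgtp2 on the opposite strand, and whether strand was used in counting is not given in the sources used here. At least 93.1% of the words of Irgm1, Iigp1 and Ifi47 are unique.

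Of other IRG genes, 9 were in the matrix and 8 were tested. Irgc1, known from the testis, stayed at or under 0.53 CPM and was not tested. After IFNγ 7 of the 8 rose and none fell (8.17% and 4.27% of tested genes), after αCD3 6 rose and none fell (22.9% and 15.7%), and after LPS 7 rose and 1 fell (26.9% and 22.3%), with median log2 fold changes of 3.12, 1.16 and 2.00. With the replicate block the αCD3 counts were 5 and 1 (28.1% and 24.2% of tested genes under the block). Gm4951, a close relative of Iigp1, rose 36.9-fold after IFNγ (0.656 to 23.2 CPM, adjusted p = 0.00173), Gm5431 12.9-fold (3.01 to 37.6 CPM, adjusted p = 0.00688) and Gm12185, which overlaps Tgtp1, 10.1-fold (11.5 to 115.9 CPM, adjusted p = 0.000869). Gm4841 and F830016B08Rik rose by 3.65 and 2.90 on the log2 scale, and 9930111J21Rik1 and 9930111J21Rik2 by 1.81 and 1.66. Irgq, which differs from the others in lacking a working GTP-binding site, was at 41.4 CPM in Naïve and 36.1 CPM in IFNγ (adjusted p = 0.607) and fell in LPS (23.1 CPM, log2 fold change -0.85, adjusted p = 0.00628).

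The receptor of IFNγ moved differently from the family. Ifngr1, its ligand-binding chain, was at 665.8 ± 8.45 CPM in Naïve and 691.3 ± 9.37 CPM in IFNγ (adjusted p = 0.759) and fell to 256.7 ± 37.5 CPM in αCD3 (log2 fold change -1.38, SE 0.09, adjusted p = 5.76e-06). It also fell in LPS, to 544.3 ± 25.03 CPM (adjusted p = 0.0186). Ifngr2, its signalling chain, fell in IFNγ (97.2 ± 2.88 against 151.6 ± 1.49 CPM, adjusted p = 0.00423) and in αCD3 (95.4 ± 16.2 CPM, adjusted p = 0.001). Irf1, an interferon regulatory factor, rose 4.33-fold in IFNγ (adjusted p = 0.00226) and 2.97-fold in LPS (adjusted p = 0.00227), and was not called in αCD3 (1.63-fold, adjusted p = 0.0969). Of the 14 genes of this pathway list, 6 rose and 1 fell in IFNγ (8.17% and 4.27% of tested genes), 4 and 3 in αCD3 (22.9% and 15.7%), and 7 and 3 in LPS (26.9% and 22.3%). With the replicate block these counts were 7 and 1 (13.5% and 11.4% of tested genes), 6 and 4 (28.1% and 24.2%), and 7 and 4 (31% and 28.4%). Those that rose in IFNγ included Irf8, which is abundant in B and myeloid cells, and Stat2.

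Guanylate-binding proteins, the larger GTPases that act on the same vacuoles, went the way of the IRGs. All 8 tested rose with IFNγ and with LPS (median log2 fold change 3.02 and 2.45), against 8.17% and 26.9% of tested genes, and with αCD3 5 rose and 1 fell, against 22.9% and 15.7%. Gbp2 went from 239 CPM in Naïve to 4061 CPM in IFNγ (17.0-fold, adjusted p = 0.000322) and 1544 CPM in LPS, and Gbp7 from 85.4 to 843 CPM in IFNγ (9.87-fold, adjusted p = 0.000322). Gbp11 was the one that fell in αCD3 (2.28 against 10.5 CPM, log2 fold change -2.22, adjusted p = 0.0112). Of 11 genes for the Atg8 conjugation system, which helps to place IRG proteins on the vacuole, edgeR called none in IFNγ (median log2 fold change 0.01, 2 at an unadjusted p under 0.05, 1 lower with the replicate block, as were 11.4% of tested genes), 1 rose and 4 fell in αCD3, and 2 rose and 4 fell in LPS. Over all tested genes 8.17% were higher and 4.27% lower in IFNγ, 22.9% and 15.7% in αCD3, and 26.9% and 22.3% in LPS, and the difference between lists was not tested. With the block the counts were 2 and 4 in αCD3 (28.1% and 24.2% of tested genes) and 2 and 5 in LPS (31% and 28.4%). Gabarap, an Atg8 homologue, went from 299.1 CPM in Naïve to 229.9 CPM in αCD3 (adjusted p = 0.0186), and Atg5, part of the conjugating complex, was the gene that rose there (40.4 to 51.6 CPM, adjusted p = 0.00581). Of 8 ubiquitin ligases and adaptors known at IRG-coated vacuoles or in their clearance, 3 rose in IFNγ and none fell, 3 rose and 3 fell in αCD3, and 4 rose and 2 fell in LPS (5 and 2 with the block), to be read against the same shares. Rnf213, a giant ubiquitin ligase, rose 7.20-fold in IFNγ (adjusted p = 0.00373) and Trim21, an antibody-binding ligase, 3.76-fold (adjusted p = 0.000848). Of 16 interferon ligand genes in the matrix only Ifng was tested; the others had at most 3 counts in any library. Of 3 genes of the type I receptor and its kinase (Ifnar1, Ifnar2 and Tyk2), edgeR called none in IFNγ or LPS. At an unadjusted p under 0.05 were the kinase gene Tyk2 in IFNγ and Ifnar1 in LPS. In αCD3 Ifnar1 fell (182.5 to 142.1 CPM, adjusted p = 0.00765). With the block 1 was called higher and 1 lower in LPS (31% and 28.4% of tested genes), and 2 lower in αCD3 (24.2%).

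Genes whose profile over the 12 libraries was most like that of the family were sought by the root mean square difference of log2 CPM, each gene centred on its own mean, from the mean of the members, among the 9598 genes whose mean CPM was 5 or more. The nearest were Gm12185 (0.159), Ly6a (0.215), Gbp7 (0.215), Gbp9 (0.240) and Gbp2b (0.244). For single members the nearest non-member was Gm12185 for Irgm1 (0.142), Samhd1 for Irgm2 (0.163) and Tgtp2 (0.203), Ly6a for Igtp (0.231), Gbp3 for Tgtp1 (0.248), Stat2 for Ifi47 (0.154) and Gm4951 for Iigp1 (0.426). Iigp1 was thus the member with the least close neighbour, and its nearest fellow member, Irgm1, stood at 0.760. Genes were centred but not scaled, so this distance also holds the size of the fold changes, which were largest in Iigp1. It does not show a different shape of profile. Samhd1, a dNTP hydrolase, rose from 621.2 ± 52.2 CPM in Naïve to 4048 ± 612 CPM in IFNγ, and Ly6a, which encodes the surface protein Sca-1, from 40.9 ± 9.96 to 299.5 ± 45.1 CPM.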

How the data were processed

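CD8 T cells of mouse spleen were measured in 12 RNA-seq libraries. Per the labels and the study's methods, the authors pseudo-aligned reads with kallisto to mm10 and deposited a matrix of unscaled estimated counts, with gene symbols in rows and libraries in columns; the kallisto version and the transcript annotation are not given in the sources used here. The submitters' processing notes also name DESeq2 1.24.0. Reads shared by near-identical genes are divided by estimation, which bears on Tgtp1 and Tgtp2. Libraries were grouped by the labels alone, and no column was left unmapped. The deposited expected counts were rounded and tested with edgeR 4.0.16 in R 4.3.3 (TMM, filterByExpr, glmQLFit with robust estimation, glmQLFTest), in 1 fit over 12 libraries with group as the only term, with Benjamini-Hochberg adjustment over 12122 genes and a threshold of 0.05. SE and 95% intervals come from that fit, which was tested on simulated data. CPM for profiles had a prior count of 2 on the log2 scale; 0.5 was added to counts in ratios, with 5 as an alternative.

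Replicate numbers in the labels were checked for pairing: over genes, same-numbered libraries of 2 groups deviated together from their group means in all comparisons (correlations of 0.117 to 0.401), so the fit with the number as a block is given wherever it changes the count of calls of members or of a gene list. Alternatives were DESeq2 1.42.0, voom of limma 3.58.1, other scalings, no filter, the block, only the 2 groups compared, the sum of Tgtp1 and Tgtp2, and each library left out in turn. When TMM factors were dropped and only library size was used, the median log2 fold change over all genes moved by more than 0.1 in the comparisons with Naïve (from -0.02 to -0.16 in IFNγ, -0.02 to -0.13 in αCD3 and -0.01 to -0.22 in LPS); the members' signs were the same. The other genes named were all other IRG genes, Ifng, Ifngr1, Ifngr2 and Irf1, up to 3 called genes per list by mean CPM, and the nearest profiles; Gbp11, Atg5 and the markers were named after their values were seen. Some genes that the rule would name are not reported here. The members and lists were chosen with earlier results of these data known. Gene models and words of 31 bases came from GENCODE M21 (GRCm38), promoter windows from RefSeq (GRCm38.p6).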

Additional observations from a re-analysis of the deposited data

How the results depend on the processing

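All 870 log2 fold changes of members under the alternatives kept the sign reported, and all 7 members stayed called in IFNγ against Naïve, LPS against Naïve and IFNγ against αCD3 under each alternative run. Counts of members called moved elsewhere. For αCD3 against Naïve (5), voom and no count filter each gave 3, the replicate block 6, leaving out 1 library 3 to 7, and leaving out replicate 1 of every group 7. For IFNγ against LPS (1), library size alone, DESeq2, voom and a fit of only the 2 groups each gave 3, no count filter 0, the replicate block 6, leaving out 1 library 0 to 3, and leaving out replicate 1 of every group 6. For αCD3 against LPS (3), DESeq2 gave 5, no count filter 1, the replicate block 7, only the 2 groups 0, leaving out 1 library 0 to 6, and leaving out replicate 1 of every group 7. Genes called in IFNγ against Naïve (1508) came to 2279 with library size alone, 3020 with the replicate block, 787 to 1651 without 1 library (850, 835, 787 and 919 without Naïve replicate 2 or 3 or IFNγ replicate 2 or 3), and 2837 without replicate 1 of every group. Genes called in αCD3 against LPS (2350) came to 4197 with the block, 1440 with only the 2 groups, 1429 to 2590 without 1 library (1558, 1429 and 1508 without αCD3 replicate 3 or LPS replicate 2 or 3), and 3582 without replicate 1 of every group. Among called genes, the percentage higher went, with library size alone, from 65.6% to 31.4% for IFNγ, 59.3% to 44.0% for αCD3 and 54.7% to 32.9% for LPS, each against Naïve, and from 49.7% to 68.8% for αCD3 against LPS. In the comparison of IFNγ with LPS it went from 44.5% to 52.6%, which turned the majority. Ratios of members that differed numbered 18 of 21 with 0.5 or 5 added to counts and 20 with permutations inside the replicate block. The cause of these moves was not tested. The replicate block changed no other call of a member than those given in the report.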
